A study of Cavia porcellus with 238 samples.

Results

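The 6 genes described here are the gonadotropin subunits CGA, LHB and FSHB, the GnRH receptor GNRHR, and the gonadotropin receptors FSHR and LHCGR. They were found by symbol among the 16009 genes of a raw RNA-seq count table from guinea pigs (GPs), and all 6 symbols were present. The table covers 24 animals of the outbred Dunkin Hartley strain HsdDhl:DH in 4 groups of 6, namely breeders and non-breeders of either sex. Breeders were kept as breeding pairs with their offspring, and non-breeders with a partner of their own sex. Tissue was taken after the lactation for the second litter, by which time the male partners had been taken away to prevent a further pregnancy. The age was 0.74 years for 4 males (2 breeders and 2 non-breeders) and 0.95 to 0.97 years for the other animals. The estrous stage of the females is not given in the sources used here.

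GnRH from hypothalamic neurons acts through GNRHR on the gonadotropes of the anterior pituitary, which secrete luteinizing hormone (LH) and follicle-stimulating hormone (FSH). Each hormone pairs the common alpha subunit CGA with its own beta subunit, LHB or FSHB, and CGA also pairs with TSHB in the thyrotropes to form thyroid-stimulating hormone. In the gonads, FSH acts on FSHR of granulosa and Sertoli cells, and LH acts on LHCGR of theca, luteal and Leydig cells, while sex steroids and inhibin feed back on the pituitary. Inhibin is known to lower FSHB more than LHB.

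Levels are given as CPM, which are counts scaled to a common library total, and tests are of edgeR with an FDR below 0.01 over all genes of the tissue. The table has 238 libraries, 1 of which was left out as another tissue than labelled, and those used held 3551108 to 22277626 counts, and the 23 pituitary libraries 12189610 to 17047067. A pituitary library of male breeder 20 was not analysed here. Of 31 markers of the labelled tissues other than the members, 24 had their highest median in the labelled tissue, including FOXL2, AMH, ZP2 and ZP3 in the ovary, INSL3, DHH, PRM1 and TNP1 in the testis, and TSHB, TBX19, GH1 and PRL in the pituitary. Of the 7 others, NR5A1 and CYP17A1 were highest in the adrenal gland, CYP19A1 in the testis, GDF9 in the cerebellum, HSD17B3 in the kidney and CLDN11 in the hypothalamus, and CYP11B1 had 0 counts in all 24 adrenal libraries, whereas CYP21A2, another enzyme of the adrenal cortex, had a median of 17439 CPM there. In bulk tissue, fewer cells of a type and less RNA per cell cannot be told apart.

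The subunits and GNRHR were pituitary genes, and LHCGR was above all an ovarian gene. CGA averaged 4639 ± 1660 CPM in the pituitary (SD, n = 23) and ranked 5 among all genes there by mean CPM, ahead of 10.7 ± 18.3 CPM in the hypothalamus (SD, n = 24). LHB averaged 353 ± 94.6 CPM in the pituitary, and at most 0.706 ± 0.289 CPM in another tissue, the cerebellum. FSHB averaged 303 ± 191 CPM in the pituitary and 0.155 ± 0.398 CPM in the hypothalamus, the tissue next in order. That place rested on few counts, with 25 of the 49 in male non-breeder 18 and 0 in 13 of the 24 libraries. GNRHR averaged 23.7 ± 15.9 CPM in the pituitary and 0.473 ± 0.763 CPM in the adrenal gland. For each of these 4 genes the lowest pituitary library lay above the highest library of any other tissue. LHCGR averaged 401 ± 159 CPM in the ovary (n = 12), 5.43 ± 2.56 CPM in the testis (n = 12) and 2.12 ± 1.94 CPM in the kidney (n = 24), and the ranges of testis and kidney overlapped. FSHR averaged 11.6 ± 9.23 CPM in the ovary and 6.97 ± 1.29 CPM in the testis with overlapping ranges, and at most 0.151 ± 0.174 CPM elsewhere, in the kidney.

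**Figure D1:**
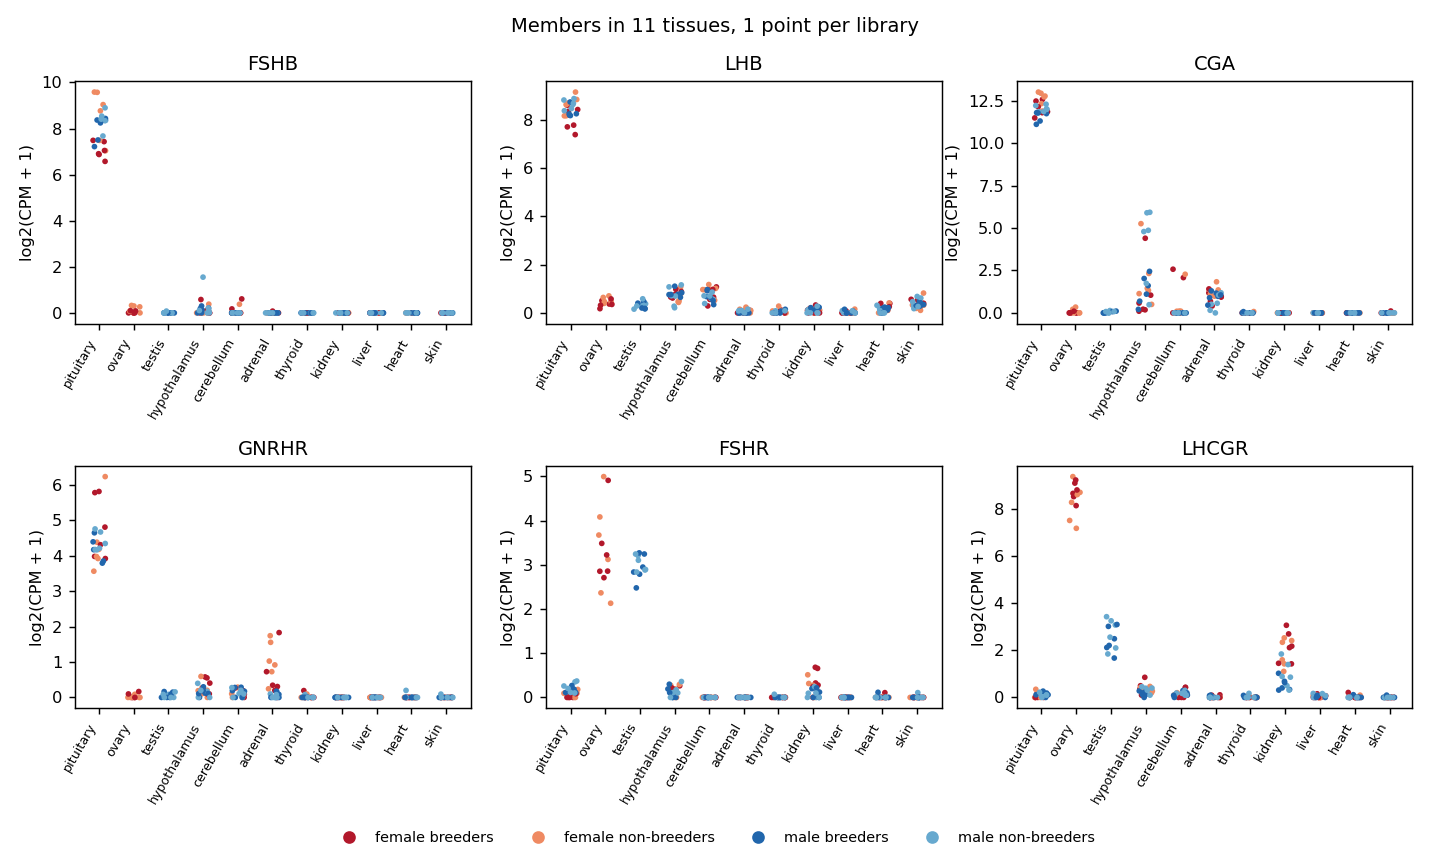
Level of the 6 genes as log2(CPM + 1) on a linear axis in 11 tissues, with 1 point per library, coloured by group. The 3 subunits and GNRHR stood out in the pituitary, FSHR in ovary and testis, and LHCGR in the ovary, with smaller levels of CGA in some hypothalamus libraries, GNRHR in female adrenal glands and LHCGR in the testis and kidney.

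Concentration in 1 tissue was measured by tau over the 11 tissue means, an index that is 0 for even expression and approaches 1 for a single tissue. Tau was 0.9999 for FSHB, 0.9997 for CGA, 0.9993 for LHB, 0.9980 for LHCGR, 0.9965 for GNRHR and 0.9368 for FSHR. Among the 15563 genes with a mean of at least 1 CPM in a tissue, 95 genes (FSHB included) had a tau at least that of FSHB and 2628 at least that of FSHR. FSHB had 0 counts in all 118 libraries of thyroid, kidney, liver, heart and skin, CGA in all 72 of kidney, liver and heart, GNRHR in all 48 of kidney and liver, and FSHR in all 72 of cerebellum, adrenal gland and liver. With 3 counts as the limit that a count of 0 allows, these zeros allow up to 0.845 CPM in the shallowest kidney library and up to 0.261 CPM for FSHR (counting error only). LHB was at 0.159 to 1.24 CPM in every hypothalamus library and at 0.0762 to 0.767 CPM in every skin library. It also had counts in every ovary, testis and cerebellum library. In these 5 tissues a library held at most 17 counts of LHB, and some held fewer than 3.

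In the pituitary, the clearest difference between groups was FSHB in females, which did not pass the FDR threshold. GNRHR, CGA, LHB and FSHB passed the filter on low counts in the pituitary, and FSHR and LHCGR, with 0 to 5 counts per library, did not. In female breeders against female non-breeders, 0 of the 4 were called by edgeR, where 0.0143% of 13957 genes were called. At an unadjusted p below 0.05 there were 3, all lower in breeders, where 15.5% of all genes had such a p, and DESeq2 called 1, FSHB, where it called 0.73% of 14530 genes. The median log2 fold change of the 4 was -0.50, against -0.00058 over all genes tested.

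FSHB, the subunit that limits FSH production, had 94.4, 125 and 179 CPM (lowest, median, highest) in female breeders, against 131, 480.5 and 767 CPM in female non-breeders. The 6 breeders stayed in a narrow band, and 4 of the 6 non-breeders (436, 525.5, 761 and 767 CPM) lay above every breeder, while non-breeders 03 (131 CPM) and 13 (178 CPM) fell within the breeders' range. The log2 fold change was -1.74 (SE 0.35), with an unadjusted p of 6.08e-05 and an FDR of 0.0283 by edgeR. DESeq2 gave -1.74 with an FDR of 0.000687, and edgeR without non-breeder 03 gave -1.93 with an FDR of 0.00367. Leaving out any other single animal moved the log2 fold change no further than -1.55, with FDR values up to 0.0858.

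CGA, the alpha subunit, had 2889, 4140 and 6160 CPM in female breeders, against 3824, 6945 and 8307 CPM in female non-breeders. The ranges overlapped, and the log2 fold change of -0.51 (SE 0.20) had an edgeR FDR of 0.234. LHB had 167, 273 and 390 CPM in female breeders, against 288, 407.5 and 570.5 CPM in female non-breeders, with a log2 fold change of -0.50 (SE 0.21) and an FDR of 0.248. NR5A1, the nuclear receptor SF-1 that drives gonadotrope genes, had 38.0, 57.9 and 94.2 CPM in female breeders, against 76.8, 93.4 and 107 CPM in female non-breeders (log2 fold change -0.61, SE 0.17, FDR 0.104). For all 3 genes the breeders had the lower median, the ranges overlapped and the threshold was not passed.

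GNRHR, the receptor for GnRH, had 14.2, 23 and 55.4 CPM in female breeders, against 10.8, 16 and 74.5 CPM in female non-breeders (log2 fold change 0.33, SE 0.43, FDR 0.744). The spread came from 3 animals, breeders 05 (55.4 CPM) and 15 (54.2 CPM) and non-breeder 03 (74.5 CPM), while the 9 other females had 10.8 to 27.1 CPM. Among the 11 males the range was 12.9 to 26.1 CPM.

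By status in males, no member was called. FSHB had 148, 181, 303, 330 and 346 CPM in the 5 male breeders with a pituitary library, against 204, 333 and 477 CPM (lowest, median, highest) in the 6 male non-breeders. CGA had 2223, 2547, 3442, 3531 and 3579 CPM in male breeders, against 3735, 4147 and 5055 CPM in male non-breeders, so the groups did not overlap, but the log2 fold change of -0.48 (SE 0.21) had an FDR of 0.9996. LHB had 290 to 428.5 CPM in male breeders and 333 to 473 CPM in male non-breeders, and its log2 fold change was -0.32 (SE 0.22). GNRHR had a log2 fold change of -0.21 (SE 0.47). Of the 4 genes 0 were called, at a background of 0% of 13957 genes, with 1 (CGA) at an unadjusted p below 0.05 (3.72% of all genes) and 0 by DESeq2, which called 0.00635% of 15750 genes. The status difference of FSHB was not shown to differ between the sexes. The interaction of sex and status for FSHB was -1.36 on the log2 scale (SE 0.50), with an unadjusted p of 0.0122 and an edgeR FDR of 0.569, and 0% of genes were called for the interaction.

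**Figure D2:**
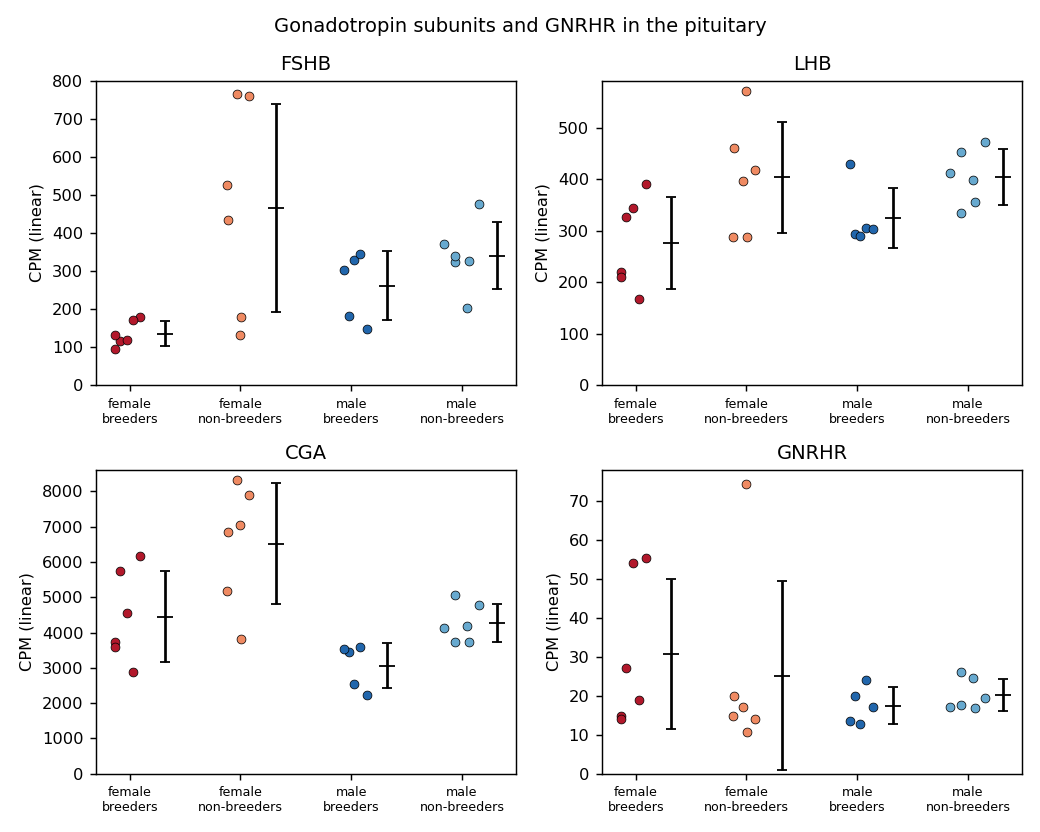
CPM of FSHB, LHB, CGA and GNRHR in the pituitary on linear axes from 0, with 1 point per library and the mean and SD beside each group (6, 6, 5 and 6 libraries). FSHB stayed at 94.4 to 179 CPM in female breeders and reached 767 CPM in female non-breeders, and GNRHR exceeded 50 CPM in 3 females.

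Between the sexes, no member was called in the pituitary. In female against male breeders the log2 fold changes were 0.59 (SE 0.21) for CGA, -0.17 (SE 0.22) for LHB, -0.90 (SE 0.36) for FSHB and 0.88 (SE 0.47) for GNRHR, with edgeR FDR values of 0.128 to 0.70. Of all genes, 0.43% were called there. In female against male non-breeders they were 0.62 (SE 0.20) for CGA, 0.01 (SE 0.21) for LHB, 0.46 (SE 0.34) for FSHB and 0.33 (SE 0.44) for GNRHR, with FDR values of 0.0988 to 0.987, where 0.752% were called. In breeders 2 members (CGA and FSHB) and in non-breeders 1 (CGA) had an unadjusted p below 0.05 (20.4% and 18.1% of all genes), and DESeq2 called 0 in either comparison, where it called 1.92% of genes in breeders and 2.2% in non-breeders. The LHB difference in non-breeders was near 0, and its sign turned with scaling by the library total alone.

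The amount of a beta subunit relative to the alpha subunit of the same library differed by sex. A ratio of counts within a library does not depend on library size, but its absolute height depends on gene length, so only groups are compared. The log2 ratio of LHB to CGA averaged -4.02 ± 0.16 in female breeders, against -3.23 ± 0.31 in male breeders (SD, n = 6 and 5), a difference of -0.79. In non-breeders it averaged -4.01 ± 0.30 in females, against -3.40 ± 0.07 in males (SD, n = 6 each), a difference of -0.60. All 12 females, at -4.39 to -3.63, lay below all 11 males, at -3.56 to -2.87. Both differences had p = 0.00216 in the exact two-sided permutation test, the smallest it can give, and 0.013 after Benjamini-Hochberg adjustment over the 12 ratio tests. TSHB, the partner of CGA in thyrotropes, averaged 241 ± 137 CPM in female breeders, against 180 ± 78.3 CPM in male breeders (log2 fold change 0.50, SE 0.43, edgeR FDR 0.544). In non-breeders TSHB averaged 293 ± 104 CPM in females, against 232 ± 116 CPM in males (0.34, SE 0.41, edgeR FDR 0.736). The part of thyrotropes in the CGA of these ratios was not tested.

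The log2 ratio of FSHB to CGA averaged -5.02 ± 0.54 in female breeders, against -3.60 ± 0.50 in male breeders, a difference of -1.42 (exact permutation p = 0.00649, adjusted p = 0.026). The ranges overlapped through female breeder 12 at -4.07 and male breeder 16 at -4.25. In non-breeders the averages were -4.04 ± 0.94 in females and -3.68 ± 0.38 in males, a difference of -0.36 (exact permutation adjusted p = 0.744). Without the males of 0.74 years the 3 sex differences in ratio with an adjusted p below 0.05 each had 0.0571, with values of -0.87 and -0.60 for LHB to CGA and -1.36 for FSHB to CGA. Leaving out any of 9 single animals (of the 11 compared) also took the adjusted p of the FSHB to CGA difference in breeders above 0.05. By status, female breeders against female non-breeders differed by -0.98 in the FSHB to CGA ratio (exact permutation p = 0.0606, adjusted p = 0.182), by -0.01 in LHB to CGA (adjusted p = 0.92) and by 0.96 in LHB to FSHB (adjusted p = 0.251). Without non-breeder 03 the first of these was -1.32 with an adjusted p of 0.026, and the last 1.38 with 0.0364. Male breeders differed from male non-breeders by 0.08, 0.17 and 0.09 in the same ratios, with adjusted p values of 0.375 to 0.855 by the exact permutation test.

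**Figure D3:**
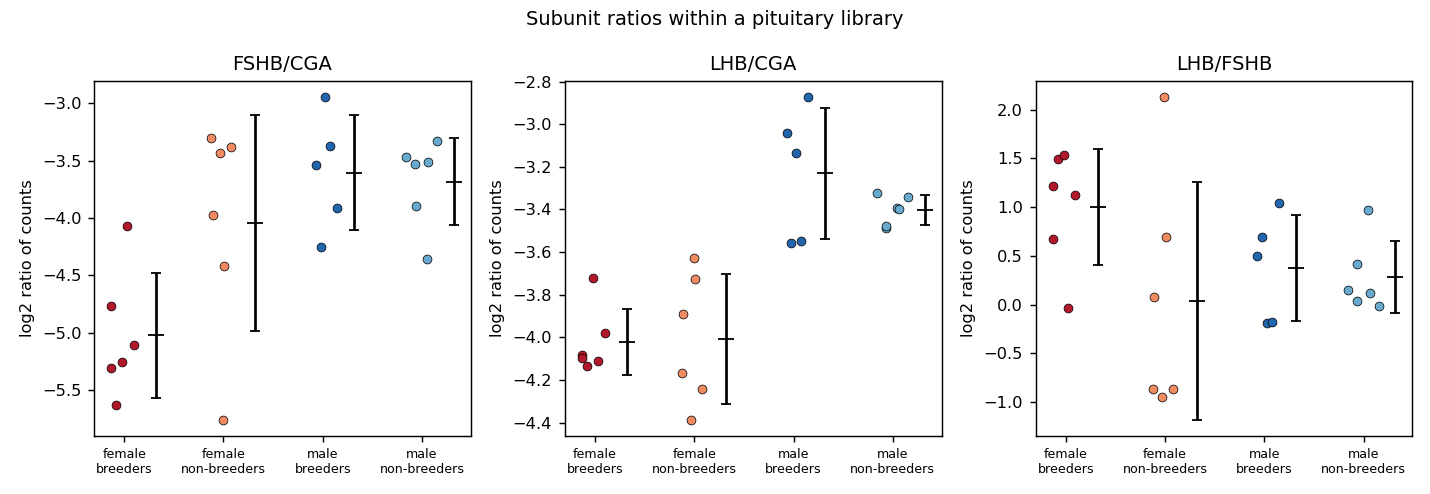
Log2 ratio of counts of FSHB to CGA, LHB to CGA and LHB to FSHB within each pituitary library, with the mean and SD beside each group. In the LHB to CGA panel the 12 females lie below the 11 males, and in the LHB to FSHB panel the female non-breeders spread from -0.95 to 2.13.

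Other genes of the axis in the pituitary were counted by list. Of 25 genes tested for gonadotrope transcription factors and feedback, 0 were called by edgeR in each of the 4 comparisons, and DESeq2 called 1, FOXL2, in female against male non-breeders. In female breeders against female non-breeders 8 had an unadjusted p below 0.05, 7 of them lower in breeders, and the median log2 fold change of the list was -0.19, where 15.5% of all genes had such a p. In female against male non-breeders 9 did, 8 of them higher in females, with a median of 0.05, where 18.1% of all genes did. Of 19 genes of GnRH receptor signalling, 1 was called in female against male non-breeders and 0 in the 3 other comparisons. It was RGS4, an inhibitor of Gq signalling, and 0.752% of all genes were called in that comparison. RGS4 had 26.7, 57.8 and 98.6 CPM in female non-breeders, against 22.8, 28.3 and 31.1 CPM in male non-breeders (log2 fold change 1.14, SE 0.19, FDR 0.00216). RGS4 had 19.2, 24.8 and 34.6 CPM in female breeders, and their log2 fold change against female non-breeders was -1.22 (SE 0.19, FDR 0.0109 by edgeR and 1.45e-06 by DESeq2). As for FSHB, non-breeder 03 was the lowest of its group in RGS4 (26.7 CPM). Without this animal the RGS4 difference by status was -1.37 with an FDR of 0.00011, and without female breeder 02 or non-breeder 13 it was -1.31 or -1.29 with an FDR of 0.00511 or 0.00808. In the sex comparison of non-breeders the FDR of RGS4 was 0.0218 without the males of 0.74 years and 0.0238 in a fit of the compared groups alone.

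Of 6 genes of GnRH and kisspeptin neurons tested in the pituitary, 1 was called, also in female against male non-breeders (0.752% of all genes). TACR3, the receptor of neurokinin B, had 1.40, 2.30 and 3.52 CPM in female non-breeders, against 0.176, 0.512 and 0.984 CPM in male non-breeders (log2 fold change 2.14, SE 0.43, FDR 0.00843), on 3 to 56 counts per library. The groups did not overlap, and the FDR was over 0.01 in 14 of the fits that left out 1 animal (up to 0.0262) and 0.0411 without the males of 0.74 years. PRLR, the prolactin receptor, was the 1 gene called among 7 of the theca and luteal list and among 4 of the Leydig list in the pituitary. This was in female against male breeders, where 0.43% of all genes were called. It was lower in female than in male breeders, with 32.4, 39.7 and 54.9 CPM in females and 63.5, 64.9, 66.1, 74.2 and 79.9 CPM in males (log2 fold change -0.73, SE 0.13, FDR 0.00497). The FDR of PRLR was 0.0165 in a fit of the compared groups alone, and the call ended in 8 of the 23 fits that left out 1 animal, which were female breeders 01, 05, 12 and 15 and male breeders 16, 22, 24 and 25, with FDR values of 0.0104 to 0.0148. Among markers of other anterior pituitary cells, 0 of 13 were called by edgeR in each of the 4 comparisons, and DESeq2 called 1 (GHRHR, female against male breeders). In female breeders against female non-breeders 4 had an unadjusted p below 0.05 (15.5% of all genes), all higher in breeders, with a list median of 0.38. In female against male breeders 2 of these markers did (20.4% of all genes), both higher in females, with a median of 0.37. The summed level of these markers ranged over 65984 to 202352 CPM in female breeders, 65649 to 132445 CPM in female non-breeders, 90122 to 115437 CPM in male breeders and 89212 to 129118 CPM in male non-breeders, mostly GH1. Of 11 markers of stroma, posterior lobe and blood, 0 were called by edgeR in females by status, with 2 higher and 1 lower at an unadjusted p below 0.05 (15.5% of all genes). The median log2 fold change of this list was 0.07. Among these, COL1A1, the collagen of fibroblasts, had 28.2, 54.9 and 378 CPM in female breeders, against 26.9, 30.2 and 64.6 CPM in female non-breeders (log2 fold change 1.73, SE 0.56, FDR 0.149), and the summed level of the list was 1780 to 2586 CPM in female breeders, against 1599 to 2770 CPM in female non-breeders. The part of these cells in the levels of the members was not tested.

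Across animals, CGA rose and fell with LHB, and so did GNRHR. A family of 13 relations of log2(CPM + 1) were computed with the group means subtracted and 100000 permutations within groups. Over the 23 pituitary libraries, CGA and LHB had Pearson's r = 0.791 (permutation p = 0.00031, adjusted 0.00403) and Spearman's rho = 0.767 (permutation p = 0.00052, adjusted 0.00676), with r = 0.712 without the 2 libraries farthest from the median of CGA. GNRHR and LHB had r = 0.711 (permutation p = 0.00289, adjusted 0.0188) and rho = 0.687 (permutation p = 0.00506, adjusted 0.0329). Without females 03 and 05, the farthest in GNRHR, r was 0.582. With group means not subtracted, r of GNRHR and LHB was 0.408 with an adjusted p of 0.153 by permutation.

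No relation with FSHB passed the threshold. CGA and FSHB had r = 0.361 (adjusted permutation p = 0.361) and rho = 0.367, LHB and FSHB r = -0.020 (adjusted permutation p = 0.937) and rho = 0.087, and GNRHR and FSHB r = -0.303 (adjusted permutation p = 0.538) and rho = -0.146. GNRHR and CGA had r = 0.520 and rho = 0.585 with adjusted permutation p values of 0.162 and 0.0686. TSHB and CGA, which share the thyrotropes, had r = 0.471 and rho = 0.485 with adjusted permutation p values of 0.162 and 0.0878.

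The genes whose level was most like that of each subunit were sought among 11588 other genes with a median of at least 5 CPM, by Pearson's r over the 23 pituitary libraries with group means subtracted. For CGA they were LHB (0.791), NR5A1 (0.774) and ISOC1 (0.753), and for LHB they were CGA (0.791), RCN1 (0.783) and NR5A1 (0.764). For FSHB they were MFAP2 (0.774), RGS4 (0.728) and EYA2 (0.721). GNRHR had higher values, with OSBPL1A (0.911), G2E3 (0.902) and ELOVL2 (0.901). These values are descriptions over libraries that share their animals and tissue, and are the highest of many.

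In the gonads, LHCGR separated ovary and testis and FSHR did not. LHCGR had 146, 402 and 672 CPM in the ovary, against 2.19, 4.78 and 9.81 CPM in the testis. The ranges were far apart, and the log2 fold change was 5.77 (SE 0.30, edgeR FDR 3.23e-15). In this comparison 89.3% of 14532 genes were called, so the call itself does not single the gene out. FSHR had 3.38, 8.01 and 30.8 CPM in the ovary, against 4.57, 6.57 and 8.63 CPM in the testis. The testis range lay inside the ovary range, and the log2 fold change of 0.31 (SE 0.31) had an FDR of 0.346, which placed FSHR among the minority of genes not called. The FSHR value depended on the scaling and filter, at 0.026 to 0.73 under the alternatives (FDR 0.028 to 0.94). The scaling also moved the median of all genes, which was 0.19 by TMM, -0.08 by median-of-ratios size factors and 0.63 by the library total alone. The highest ovary held 9.14 times the FSHR level of the lowest, whereas in the testis this factor was 1.89. For LHCGR the factors were alike, 4.62 in the ovary and 4.47 in the testis.

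**Figure D4:**
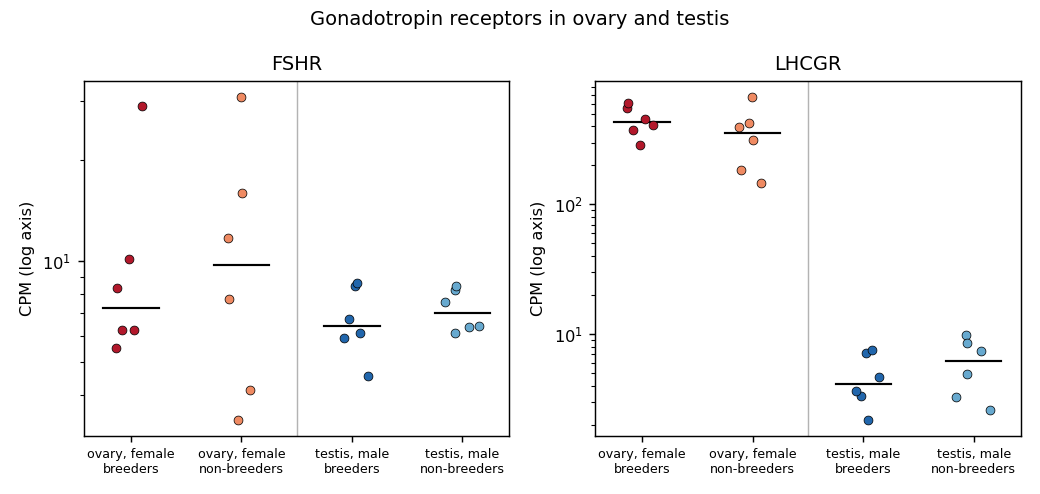
CPM of FSHR and LHCGR in ovary and testis on log axes, with 1 point per animal and a line at the median of each group of 6. LHCGR reached 146 to 672 CPM in the ovary and stayed below 10 CPM in the testis, and FSHR overlapped between the organs with 2 ovaries near 30 CPM.

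Genes of the gonadal cells that carry the receptors were counted by list in ovary against testis. Of all genes, 47.6% were called as higher and 41.7% as lower in the ovary, against 43.1% and 45.8% by median-of-ratios size factors and 54.5% and 35.6% by the library total alone. Of 15 granulosa cell genes, 14 were called as higher in the ovary and 0 as lower, with FOXL2 at 43.1, 88.0 and 127 CPM in the ovary, against 0 to 0.121 CPM in the testis. Of 11 theca and luteal cell genes, 10 were higher and 1 lower in the ovary. CYP17A1, the theca and Leydig enzyme of androgen synthesis, had 220.5, 445 and 748 CPM in the ovary, against 30.3, 80.7 and 132 CPM in the testis. CYP11A1, which begins steroid synthesis from cholesterol, had 59.5, 188 and 372 CPM in the ovary, against 3.71, 6.08 and 10.1 CPM in the testis. Of 9 Leydig cell genes, several of them shared with the theca list, 7 were higher and 2 lower in the ovary, with a median of 2.95. INSL3, the Leydig cell peptide, was 1 of the 2 lower, with 0.428, 0.874 and 5.53 CPM in the ovary, against 30.1, 97.9 and 196 CPM in the testis. Of 14 Sertoli cell genes 7 were higher and 5 lower in the ovary, and of 14 germ cell genes of the testis 1 was higher and 12 were lower. Of 15 genes of gonadotropin receptor signalling, 8 were higher and 6 lower in the ovary, from AREG (log2 fold change 5.27), an EGF-like factor induced by LH in follicles, to PDE10A (-6.09), which breaks down cAMP. The median of these 15 was 0.31, against 0.19 over all genes tested.

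By breeding status neither receptor passed the test in the gonads. In the ovary, FSHR had 5.53, 7.28 and 29 CPM in breeders, against 3.38, 9.72 and 30.8 CPM in non-breeders (log2 fold change -0.17, SE 0.57, FDR 0.909). LHCGR had 285, 431 and 608 CPM in breeders, against 146, 354 and 672 CPM in non-breeders (log2 fold change 0.34, SE 0.33, FDR 0.70). In the testis, FSHR had 4.57, 6.42 and 8.63 CPM in breeders, against 6.13, 7.0 and 8.46 CPM in non-breeders (log2 fold change -0.09, SE 0.14, FDR 0.914). LHCGR had 2.19, 4.14 and 7.59 CPM in breeders, against 2.60, 6.19 and 9.81 CPM in non-breeders (log2 fold change -0.34, SE 0.38, FDR 0.856). The groups overlapped throughout, and 0 of 2 members were called by edgeR in either organ, with 0 at an unadjusted p below 0.05 and 0 by DESeq2. Of all genes 0% were called by edgeR in each organ, and 0.125% in the ovary and 0.019% in the testis by DESeq2. Genes of the granulosa (15), theca and luteal (11), oocyte (9), Leydig (8) and Sertoli (14) cell lists tested in their own organ also had 0 calls by edgeR by status, with 1, 2, 0, 1 and 3 at an unadjusted p below 0.05 (10.1% of all genes in the ovary and 8.24% in the testis), and 0 calls by DESeq2.

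No relation of the receptors with each other or with the hormone subunits passed the threshold. FSHR and LHCGR had r = 0.363 in the ovary and 0.105 in the testis (rho 0.189 and 0.077, adjusted permutation p 0.538 and 0.881 for r). Pituitary FSHB and gonadal FSHR had r = -0.594 in females (permutation p = 0.0864, adjusted 0.225; rho = -0.441), which was -0.213 without females 03 and 13, and r = -0.083 in males (adjusted permutation p = 0.926; rho = -0.236). Pituitary LHB and gonadal LHCGR had r = -0.168 in females and -0.261 in males (rho -0.252 and -0.318, adjusted permutation p 0.774 and 0.640 for r). The genes most like FSHR in the 12 ovaries were ST3GAL2 (r = 0.941), ST8SIA4 (0.935) and FLT3 (0.925), and in the 12 testes ECT2 (0.936), HIAT1 (0.932) and HSD17B4 (0.922). For LHCGR they included ZNF462 (0.956) and SGCE (0.893) in the ovary, and GLRX2 (0.939) and ADAT2 (0.910) in the testis. With 12 libraries per organ, and 10885 genes compared in the ovary and 10457 in the testis for FSHR, these values are descriptions only.

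The same females stood apart in the pituitary and in the ovary, a pattern that was picked after the values were seen and is given with no test. The ovaries with the most FSHR were those of non-breeder 03 (30.8 CPM) and breeder 05 (29 CPM), against 3.38 to 15.9 CPM in the 10 others, and these animals had 74.5 and 55.4 CPM of pituitary GNRHR. Their ovaries also held the most CYP19A1, the aromatase that makes estrogen in granulosa cells of large follicles, with 2367 CPM in non-breeder 03 and 1166 CPM in breeder 05. Breeder 14 (320 CPM) and breeder 01 (45.2 CPM) followed, and the 8 other ovaries had 0.489 to 6.76 CPM. INHA, the alpha subunit of inhibin, was likewise highest in non-breeder 03 (7813 CPM) and breeder 05 (2668 CPM), against 182 to 1812 CPM in the others.

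Pituitary LHB, at 570.5 CPM, was the highest of all 12 females in non-breeder 03, and breeder 05 had the highest LHB of the breeders (390 CPM). Breeder 15 broke the pattern, with 54.2 CPM of GNRHR, 10.2 CPM of ovarian FSHR and 0.894 CPM of CYP19A1. The 2 non-breeders with FSHB in the range of breeders, 03 and 13, had the highest ovarian INHA of the non-breeders (7813 and 1230 CPM), against 182 to 974.5 CPM in the 4 with high FSHB. Among breeders, FSHB was at 94.4 to 179 CPM whether INHA was at 211 CPM (breeder 02) or at 2668 CPM (breeder 05). Any part of inhibin in these FSHB levels was not tested.

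Outside the pituitary and gonads, CGA was present in some hypothalamus libraries. It was highest in male non-breeders 23 (60.1 CPM), 18 (58.8 CPM), 19 (28.2 CPM) and 30 (26.8 CPM), female non-breeder 08 (37.3 CPM) and female breeder 14 (20.1 CPM), and at 0.0717 to 4.46 CPM in the 18 others. CGA and LHB were the members tested there, with 0 of 2 called by edgeR in each comparison, 1 at an unadjusted p below 0.05 (CGA in males) and 0 by DESeq2, where edgeR called 0% of 13910 genes by status and 0.00719% by sex, and DESeq2 0% by status in females and 0.0127% in the other comparisons. Of 7 genes of GnRH and kisspeptin neurons tested in the hypothalamus, 0 were called by edgeR in each comparison, with 1 at an unadjusted p below 0.05 in females by status and 1 in non-breeders by sex. GNRH1 itself was not among the gene symbols of the count table and so could not be analysed here. The log2 fold change of CGA in male breeders against male non-breeders was -3.88 (SE 1.26, FDR 0.873). The 6 libraries with the most CGA were also the 6 highest in PITX1 and LHX3, transcription factors of the anterior pituitary, and in TSHB. PITX1 had 0.964 to 2.09 CPM in them, against 0 to 0.127 CPM in the others, LHX3 0.389 to 1.08 CPM against 0 to 0.191 CPM, and TSHB 1.26 to 2.01 CPM against 0.263 to 1.19 CPM. GH1, at 0 to 22.8 CPM in the 6 and 0 to 25.4 CPM in the others, did not separate them, nor did PRL or LHB. FSHB had 0 to 1.93 CPM in the 6, against 0 to 0.23 CPM in the others, and 3 of the 6 lay above all others. POMC had 17.2 to 222 CPM, against 4.23 to 46.6 CPM, and 2 of the 6 lay above all others. The part of anterior pituitary tissue in these CGA levels was not tested.

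In the cerebellum, CGA had 3.23 to 4.96 CPM in female breeders 01 and 02 and female non-breeder 03, against 0 to 0.0742 CPM in the 21 others. These 3 libraries also had 114 to 150 CPM of GH1 and 14.9 to 24.5 CPM of PRL, against at most 2.02 and 0.942 CPM in the others. FSHB had 0.127 to 0.522 CPM in the 3, against 0 in the 21 others. Pituitary RNA in these 3 libraries was not tested further. LHB was the member tested in the cerebellum, with 0 calls by edgeR in 4 comparisons and an unadjusted p of 0.0429 in female against male non-breeders. At most 0.00741% of 13487 genes were called there. In the adrenal gland CGA had a median of 1.03 CPM and counts in 23 of 24 libraries, where PRL had 0 counts and GH1 at most 2 in any library.

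GNRHR in the adrenal gland was found mostly in females. It had 0.184, 0.964 and 2.35 CPM in female non-breeders, against 0, 0 and 0.0708 CPM in male non-breeders. In breeders it had 0, 0.254 and 2.56 CPM in females, against 0, 0.0303 and 0.127 CPM in males. The groups of non-breeders did not overlap, and summed over libraries there were 121 counts in female and 2 in male non-breeders, a 55.7-fold ratio of summed CPM (95% exact interval 15.1 to 465.5, counting error only). For female against male non-breeders edgeR gave a log2 fold change of 5.32 (SE 1.07) and an FDR of 0.00296, and GNRHR was the 1 member of 2 tested that was called, where 3.41% of 13220 genes were called (2.13% as higher in females). For breeders the counts were 79 in females and 5 in males, a 15.6-fold ratio (6.4 to 49.3), and the log2 fold change of 3.56 (SE 0.97) had an FDR of 0.023, where 3.54% were called. Female breeder 12 held 57 of the 79 counts, and without this animal the ratio was 5.55 (2.05 to 18.8) and the log2 fold change 2.24, with an FDR of 0.15. Without female breeder 14, whose count was 0, the FDR was 0.00962. The interaction with status was -1.76 (SE 1.71, FDR 0.9998). The call in non-breeders held without each animal in turn, and ended without the males of 0.74 years (log2 fold change 5.63, FDR 0.0205) and without the 5 adrenal libraries of 50 nt, all of females (5.12, FDR 0.0144). By status 0 members were called, at a background of 0%.

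LHCGR in the kidney was higher in females. It had 1.69, 3.44 and 7.40 CPM in female breeders, against 0.242, 0.437 and 1.04 CPM in male breeders, with no overlap. The log2 fold change was 2.94 (SE 0.54, edgeR FDR 0.00517), where 0.388% of 13135 genes were called (0.137% as higher in females). The counts were 19 to 77 per library in female and 3 to 14 in male breeders. In non-breeders it had 1.16, 3.06 and 4.79 CPM in females, against 0.242, 0.836 and 2.60 CPM in males, with a log2 fold change of 1.54 (SE 0.50) and an FDR of 0.335, and 0.411% were called. The interaction with status was 1.40 (SE 0.73, FDR 0.888), so the sex difference was not shown to differ by status. The call in breeders ended in 8 of the 24 fits that left out 1 animal, which were female breeders 05, 14 and 15 and male breeders 20, 21, 22, 24 and 25, with FDR values of 0.0104 to 0.0211, and without the males of 0.74 years (2.66, FDR 0.0718). Genes of steroid synthesis were also higher in some of these kidneys. At an unadjusted p below 0.05 there were 5 of 8 theca and luteal genes, all higher in females (median log2 fold change 0.66), and 5 of 5 Leydig genes, 4 higher and 1 lower (median 4.08), with 0 called by edgeR and 10.8% of all genes at such a p. These lists share genes. CYP17A1 had 0.0822, 9.34 and 209.5 CPM in female breeders, against 0.148, 0.397 and 2.67 CPM in male breeders. STAR, which carries cholesterol into mitochondria, had 0.739, 4.13 and 92.3 CPM in female breeders, against 0.37, 1.09 and 2.75 CPM in male breeders. CYP21A2, the enzyme of the adrenal cortex, had 0, 5.48 and 150 CPM in female breeders, against 0, 0.227 and 2.59 CPM in male breeders. CYP21A2 was highest in female breeder 01 (150 CPM), as CYP17A1 and STAR were. High values were not limited to female breeders. Female non-breeder 06 had 17.6 CPM of CYP17A1 and 12.2 CPM of CYP21A2, and male non-breeder 28 had 15.1 and 9.89 CPM. The part of adrenal tissue in these kidney levels was not tested. Female breeder 01, with the highest CYP17A1 and STAR, had the lowest LHCGR of the female breeders (1.69 CPM), and breeder 15, with the highest LHCGR (7.40 CPM), had 0.288 CPM of CYP17A1. In the adrenal gland, where CYP17A1 was at 17667 to 42837 CPM, LHCGR was at 0 to 0.0793 CPM. FSHR in the same kidneys had 0 to 8 counts in female breeders and 0 to 2 in male breeders and was not tested.

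**Figure D5:**
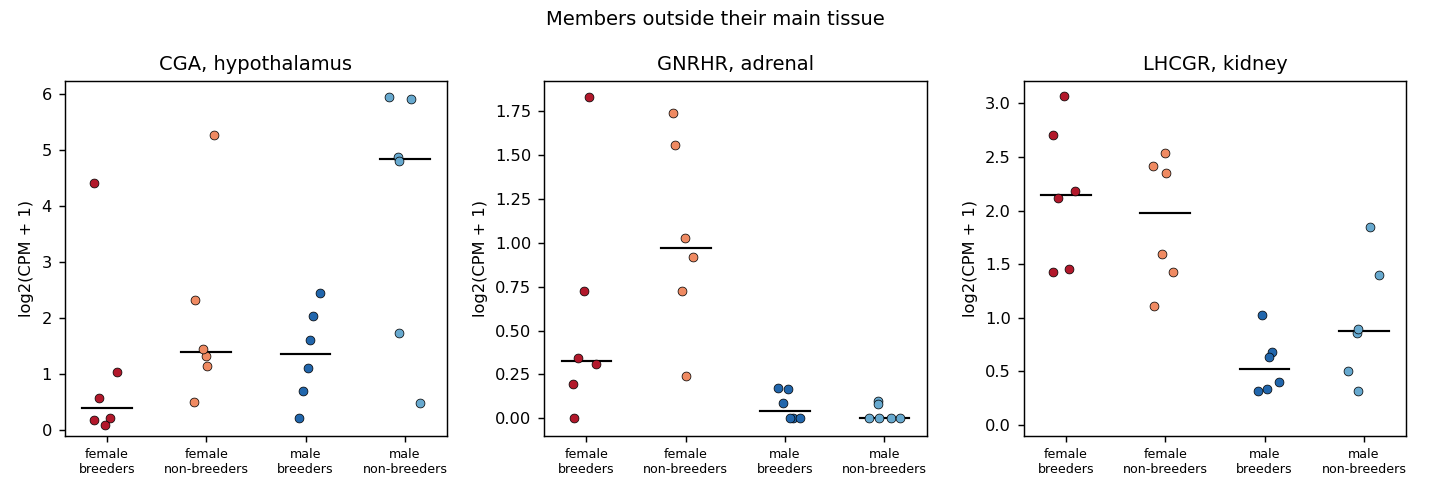
CGA in the hypothalamus, GNRHR in the adrenal gland and LHCGR in the kidney as log2(CPM + 1), with 1 point per library and a line at the median of each group of 6. CGA was high in 4 male non-breeders and 2 females, GNRHR was at 0 to 0.127 CPM in every male, and LHCGR did not overlap between female and male breeders.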

How the data were processed

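The deposited values are raw counts per gene. Per the labels and the study's methods, the authors sequenced single-end reads of 51 nt (50 nt in 5 adrenal libraries, all of females, and 4 thyroid libraries) from libraries that do not mark strand, aligned them with STAR 2.4.1d to cavPor3 (at most 6% mismatches, at least 90% of a read aligned), discarded reads with several positions, and counted with HTSeq 0.6.1p1 on transcripts named by human symbols. Near-identical copies, overlapping genes and antisense genes are therefore uncertain, and no coordinates or sequences are given here. Samples were grouped by their titles, and 1 thyroid library (male non-breeder 19), named a wrong tissue in the study, was left out. Nothing states pooling, and each library is 1 animal.

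Counts of each tissue were fitted in 1 model of all groups with edgeR 4.0.16 in R 4.3.3 (TMM, minimum count 10 and total 15, robust quasi-likelihood F test, FDR by Benjamini-Hochberg below 0.01). The authors used DESeq2, and DESeq2 1.42.0 was an alternative here. Alternatives were other scalings, no filter, fits of the compared groups alone, without the males of 0.74 years and without each animal. Those for kidney and adrenal gland were added after seeing the data. Ratios and relations used exact or 100000 permutations (Python 3.11.15, scipy 1.17.1), with 0.05 as the threshold for adjusted p. The fits were tested on counts simulated from the pituitary libraries, with the same spread for all genes and without genes of low counts. The low counts of members in kidney and adrenal gland lay outside that setting. Depth bounds low levels at 3 counts per library. Within groups, no 2 libraries agreed within counting noise (chi-square per degree of freedom at least 4.30). The genes and lists were chosen with earlier results of these data known. Named genes were the members, list genes past the FDR threshold, the 3 genes most like each member (for LHCGR, 1 in each gonad is not reported here), and, in ovary against testis, examples from the 3 highest and lowest list genes. NR5A1, CYP19A1, INHA, PITX1, LHX3, COL1A1, TSHB and the kidney steroid genes were singled out after their values were seen. No columns of other samples were used.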

Additional observations from a re-analysis of the deposited data

Results flagged for a closer look

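Within a group of 5 or 6 libraries, 6 of 40 groups examined had an animal set apart from the others by Dixon's test on CPM. Its chance rate of about 1 in 20 holds for normally distributed values, which CPM need not be, above all at low counts. The 6 are therefore given as descriptions, and are not shown to exceed chance. LHB in the pituitary of male breeders was 428.5 CPM in animal 25, against 290 to 306 CPM in the 4 others. GNRHR in the pituitary of female non-breeders was 74.5 CPM in animal 03 (others 10.8 to 19.9 CPM). FSHR in the ovary of female breeders was 29 CPM in animal 05 (others 5.53 to 10.2 CPM). CGA in the hypothalamus was 20.1 CPM in female breeder 14 (others 0.0717 to 1.06 CPM) and 37.3 CPM in female non-breeder 08 (others 0.415 to 4.01 CPM). GNRHR in the adrenal gland of female breeders was 2.56 CPM in animal 12 (others 0 to 0.655 CPM). What sets these animals apart was not tested.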

How the results depend on the processing

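No paired analysis was possible because the groups compared within a tissue share no animal and no number. Breeders were kept as breeding pairs and non-breeders as same-sex pairs, so mates or cage mates may be among the animals compared. The labels name no mate and no cage, so such pairs could not be matched. The tests by sex and by status treated all animals as independent, and any effect of a shared cage was not tested. Of 1848 alternative values of the results, 1748 kept their direction and their side of the threshold. Many of these results were far from the threshold, so this total says little about the few that were called. The number of members called in the pituitary of female breeders against female non-breeders was 1 with DESeq2, and 0 to 1 when animals were left out in turn, where it was 1 without non-breeder 03. In the kidney of female against male breeders it was 0 without the males of 0.74 years and 0 to 1 without single animals. In the adrenal gland it was 0 for female against male non-breeders without these males and 0 without the libraries of 50 nt, and 0 to 1 without single animals for breeders. Without the males of 0.74 years the ratio differences were -1.36 for FSHB to CGA in female against male breeders, -0.11 in male breeders against male non-breeders, and -0.87 and -0.60 for LHB to CGA in breeders and non-breeders by sex. With group means not subtracted, r was 0.409 for LHB with FSHB, 0.408 for GNRHR with LHB, 0.087 for FSHB with testis FSHR and 0.030 for LHB with testis LHCGR, and TMM-scaled CPM gave 0.038 for LHB with FSHB.

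The values whose direction turned had not passed the threshold. LHB in the pituitary of female against male non-breeders was -0.00096 with the library total alone, -0.030 without the males of 0.74 years and -0.13 to 0.10 without single animals. GNRHR there was -0.40 to 0.50, and GNRHR in the adrenal gland of female breeders against female non-breeders was 0.14 without the libraries of 50 nt. Without single animals, CGA in the hypothalamus was -4.26 to 1.06 by status in females and -2.30 to 1.37 by sex in breeders, and FSHR was -0.77 to 0.36 in the ovary and -0.16 to 0.0037 in the testis by status. The ratio differences without single animals were -1.32 to -0.83 (FSHB to CGA), -0.090 to 0.062 (LHB to CGA) and 0.77 to 1.38 (LHB to FSHB) in female breeders against female non-breeders, -1.61 to -1.25 (FSHB to CGA) in female against male breeders, and -0.087 to 0.24 (FSHB to CGA) and -0.072 to 0.23 (LHB to FSHB) in male breeders against male non-breeders. The causes were not tested. Members below 3 counts per library cannot be ranked at this depth.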
